A study of Mus musculus with 12 samples.

Results

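Messenger RNA was compared between bone-marrow derived macrophages of the group named Full Tumor and of the group named Control, with all genes of the deposited table as members. The comparison holds 6 of the 12 mouse libraries, 3 in each group, and 13414 of the 24728 listed genes passed the filter on low counts and were tested. In all 4 groups the cells were sorted as dTomato-positive, dTomato being a red fluorescent protein, out of ex vivo assays whose source is labelled as bone marrow and dissociated brain tumor. The other groups, Tumor without Myelin and Myelin Alone, have 3 libraries each. Every group has 1 library for each of the mn numbers 957, 958 and 016, and libraries with the same number were paired. The labels give neither the meaning of mn, nor the exposure time, the tumor model behind the dissociated tumor, the strain and age of the animals, or what the Control cells received. They also do not say that the libraries came from separate animals or cultures. The p-values below measure the spread left among the 12 libraries of all 4 groups once group and mn number are fitted. That is not the whole spread between libraries of 1 group, and it may be technical.

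Macrophages grown from bone marrow engulf dying cells and debris through surface receptors, and break the cargo down in lysosomes with acid hydrolases and cathepsins. Myelin, the lipid sheath of axons, is rich in cholesterol. Macrophages that take up cholesterol generally activate the nuclear receptor LXR, which raises cholesterol exporters, and keep the transcription factor SREBP2 inactive, which lowers the enzymes of sterol synthesis. Secreted and membrane proteins are folded in the endoplasmic reticulum by chaperones whose genes respond to unfolded protein.

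Library totals lay between 17827098 and 21689624 counts in Full Tumor and between 17133919 and 20725607 in Control, and levels are given in CPM, the count scaled to a common library size with TMM factors. Mitochondrial genes took 0.557% to 0.693% of counts in Full Tumor and 0.287% to 0.941% in Control. The cells carried macrophage transcripts in every library, with Cd68 at 3367 to 3996 CPM in Full Tumor and 3169 to 3590 CPM in Control, and Csf1r at 1424 to 1512 and 1218 to 1796 CPM in these groups. Olig2 and Sox10, markers of glioma progenitors, had no count in any of the 6 libraries, which allows up to 0.171 CPM in Full Tumor and 0.165 CPM in Control at 3 counts. Other markers of that list were present at low levels, with Cspg4 at 3.78 to 10.5 CPM in Full Tumor and 3.36 to 9.88 CPM in Control, Nes at 1.18 to 2.62 and 3.09 to 7.80 CPM, and Pdgfra with counts in number 016 alone, at 2.65 CPM in Full Tumor and 0.932 CPM in Control. Bcan was at 0.370, 0 and 0.614 CPM in Full Tumor and 0 in the 3 Control libraries. The list summed to 8.65 to 13.1 CPM in Full Tumor and 7.56 to 17.7 CPM in Control, and none of its 3 tested members passed. The myelin gene Mbp, which blood-lineage cells also transcribe, stood at 47.2 to 65.8 CPM in Full Tumor and 47.7 to 77.0 CPM in Control. Cnp, an enzyme of myelin and other cells, was at 71.7, 90.5 and 75.8 CPM in Full Tumor and 60.1, 53.1 and 55.1 CPM in Control, without overlap, and Mobp, a myelin protein gene, at 0.845, 0.913 and 0.614 CPM in Full Tumor and 0 in the 3 Control libraries. Of the 5 tested oligodendrocyte markers 4 had a positive log2 fold change, with a median of 0.50, and none passed (adjusted p 0.206 for Cnp and 0.121 for Mobp). The part of RNA from tumor or glial cells in the results below was not tested. The libraries of number 016 lay apart from those of 957 and 958 in all 4 groups (46.1 to 63.6 on the first principal component, against −53.6 to −1.87). In bulk libraries, fewer cells of a type and less RNA per cell cannot be told apart.

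Full Tumor macrophages differed from Control macrophages in 109 of 13414 tested genes, or 0.813%, at a Benjamini-Hochberg adjusted p under 0.05 in edgeR's quasi-likelihood test with the mn number as a block. Of these genes 85 were higher (0.634% of those tested) and 24 were lower (0.179%). The higher genes included MS4A membrane proteins, Fc and pattern recognition receptors, complement components, cathepsins, some endoplasmic reticulum chaperones and cholesterol exporters. The lower genes included sterol synthesis enzymes, macrophage elastase and the integrin subunit Itgax. All 109 genes went the same way in the 3 pairs, which selection by a paired test favors and which is no separate support. The 3 Full Tumor libraries did not overlap the 3 Control libraries in 78 of them, while 8.1% of all tested genes had groups that did not overlap. Most differences were modest, with a median log2 fold change of 0.87 among the higher genes and −1.04 among the lower ones, and 34 genes were over 2-fold higher and 13 over 2-fold lower. By biotype 106 of the called genes were protein-coding. The other 3 were the processed transcript Gm17749 and the antisense genes Plxna4os1 and BE692007, whose reads cannot be told apart from those of the opposite strand because the strand setting of the counting is not given in the sources used here.

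The calls rested on the pairing and on single libraries. Without the mn term no gene passed with edgeR, 560 genes had an unadjusted p under 0.05, and the adjusted p of the 109 genes lay between 0.124 and 1.00. The number of calls was 48, 29 and 61 without the Full Tumor library of number 957, 958 or 016, and 37, 33 and 107 without the Control library of number 957, 958 or 016. It was 1 without number 957, 4 without 958 and 183 without 016, and 71 of the 109 genes were called without 016 while 38 were not. Of the 109 genes, 23 passed in all 6 fits that left out 1 Full Tumor or Control library, and 25 in none. In each of these fits, and in those without 1 number, at least 108 kept their direction. The count without 016 leaves out Mpo, which was not tested there. Scaling by library totals alone gave 67 higher and 34 lower calls.

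**Figure D1:**
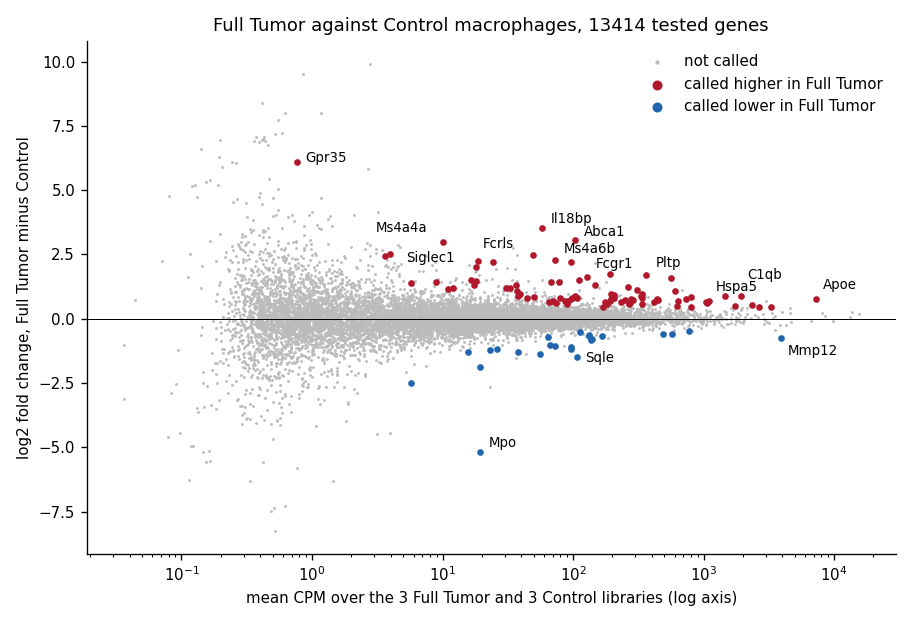
Each point is 1 of the 13414 tested genes, with its mean CPM over the 3 Full Tumor and 3 Control libraries on the horizontal log axis and its log2 fold change, Full Tumor minus Control, on the vertical axis; colored points are the 85 genes called higher and the 24 called lower. The called genes lie over a wide range of levels, and most of them have a log2 fold change between −1.5 and 2.5.

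Several members of the MS4A family were higher in Full Tumor. They are membrane-spanning proteins of myeloid and lymphoid cells, some of which modulate signalling of immune receptors. Of 11 tested members of the list 6 were called higher and none lower. The median log2 fold change of the list was 1.32, beside 0.01 over all tested genes. Within numbers 957, 958 and 016 the median log2 ratio was 1.22, 1.08 and 0.26, and 10, 9 and 8 of the 11 were higher. Ms4a6b (chromosome 19, 11516512 to 11531256 of mm10) was at 133, 172 and 59.4 CPM in the Full Tumor libraries of 957, 958 and 016, and at 21.3, 38.6 and 14.4 CPM in the Control libraries of the same numbers. Its lowest Full Tumor value lay above its highest Control value. The log2 fold change was 2.29 ± 0.17 (SE from the fit of all 12 libraries), with an adjusted p of 0.000297. Ms4a6c was at 180, 220 and 97.2 CPM in Full Tumor and 56.1, 77.7 and 39.4 CPM in Control, again without overlap, with a log2 fold change of 1.50 ± 0.14 and an adjusted p of 0.000632. Ms4a4a was at 17.5, 28.0 and 6.90 CPM in Full Tumor and at 3.20, 4.39 and 0.245 CPM in Control, where it was a low transcript. Its log2 fold change was 3.00 ± 0.41 with an adjusted p of 0.00663.

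The other called members changed less. Ms4a14 had 22.7, 26.8 and 25.5 CPM in Full Tumor and 9.64, 13.2 and 7.65 CPM in Control. Ms4a6d had 529, 592 and 522 CPM in Full Tumor and 271, 280 and 435 CPM in Control. For Ms4a7, with 1298, 1700 and 863 CPM in Full Tumor and 694, 1052 and 754 CPM in Control, the groups overlapped and the log2 fold change was 0.60 ± 0.12 with an adjusted p of 0.0422. The 6 called genes lie on chromosome 19 between 11301249 and 11604849, where the family is clustered, and all 9 tested Ms4a symbols are on that chromosome. Members of the cluster are close copies, so counting may have shared reads among them and the split between members is uncertain. Ms4a4c (log2 fold change 2.69, adjusted p 0.269) and Ms4a4b (2.08, 0.385) did not pass, and nor did Tmem176a and Tmem176b, relatives outside the cluster. Ms4a3, a gene of granulocyte and monocyte precursors, had 0, 0 and 0.189 CPM in Full Tumor and 0.959, 0 and 7.51 CPM in Control, and did not pass. Ms4a6b and Ms4a6c passed in all 6 fits without 1 library, and Ms4a4a in 5, its adjusted p being 0.0527 without the Full Tumor library of 958. The number of members called was 3, 2 and 5 without the Full Tumor library of 957, 958 or 016 and 3, 4 and 6 without the Control library of 957, 958 or 016. It was 0 without number 957, 1 without 958 and 6 without 016, where Ms4a4c passed and Ms4a14 did not (adjusted p 0.0162 and 0.0585).

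**Figure D2:**
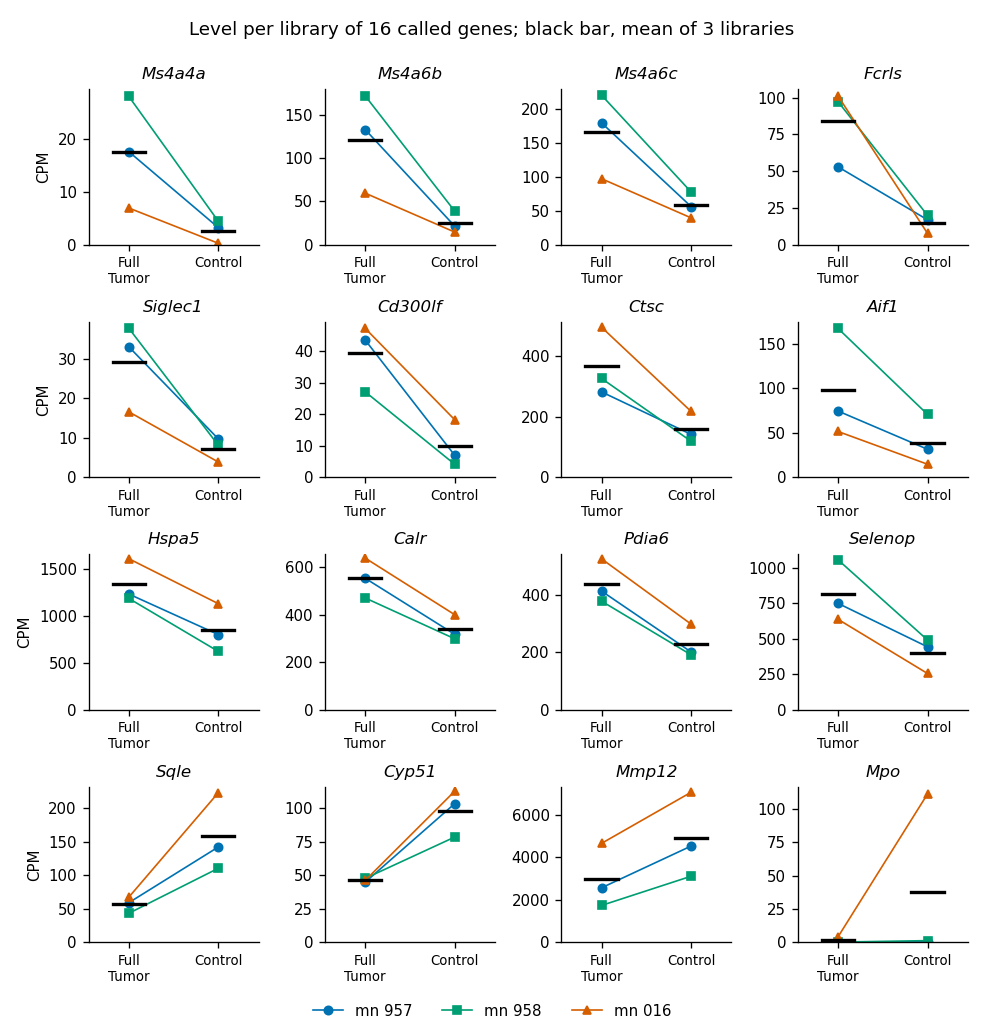
CPM per library of 16 called genes, Full Tumor left and Control right in each panel, with a line joining the libraries of 1 mn number and a black bar at the mean of 3 libraries. In every panel the 3 lines slope the same way, and for Mpo the Control library of 016, at 111 CPM, stands far above the others.

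Receptors that bind antibody, sialic acid or modified lipoprotein were raised gene by gene rather than as whole families. Siglec1, the sialoadhesin of tissue macrophages (chromosome 2, 131069220 to 131086765), was at 33.1, 37.8 and 16.6 CPM in Full Tumor and 9.69, 8.07 and 3.83 CPM in Control. The groups did not overlap, the log2 fold change was 2.02 ± 0.26 and the adjusted p 0.00474, and the gene passed in all 6 fits without 1 library. Cd300lf, a receptor for phosphatidylserine and other lipids, was the other of 16 tested CD300, Siglec and related receptors to pass, and the median of that list was −0.06. Siglecf pointed the other way, with 17.4, 17.8 and 22.5 CPM in Full Tumor and 57.3, 55.2 and 50.9 CPM in Control, at an adjusted p of 0.0544. Among 7 tested Fc receptor genes Fcgr1 and Fcgr4 were higher. Fcgr4, a receptor for mouse IgG2 antibodies, had 81.3, 109 and 52.0 CPM in Full Tumor and 47.4, 69.3 and 35.5 CPM in Control, with overlapping groups, a log2 fold change of 0.67 ± 0.13, an adjusted p of 0.0473 and no pass in any of the 6 fits without 1 library, nor without number 016 (adjusted p 0.113). Fcgr3 and Fcer1g, the shared signalling chain, had log2 fold changes of 0.10 and 0.08 and did not pass.

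Among 23 tested scavenger and lectin receptors and partners, 3 were higher and none lower, and the median of the list was 0.09. Msr1, scavenger receptor class A, was at 632, 603 and 1122 CPM in Full Tumor and 432, 378 and 630 CPM in Control. Its groups overlapped through the Control library of 016, and its log2 fold change was 0.69 ± 0.11 with an adjusted p of 0.0145. Cd5l, a secreted lipid-binding protein of tissue macrophages, was at 771, 1323 and 370 CPM in Full Tumor and 350, 506 and 68.5 CPM in Control, a log2 fold change of 1.60 ± 0.25 with an adjusted p of 0.0151. Cd36 and Mrc1, with log2 fold changes of 0.14 and 0.27, did not pass. Without 1 library Msr1 passed in 2 of 6 fits and Cd5l in 3. The endosomal receptors for single-stranded RNA, Tlr7 and Tlr8, were the 2 of 15 tested Toll-like receptor genes and partners that passed. Tlr7 had 98.3, 97.0 and 170 CPM in Full Tumor and 70.0, 56.9 and 84.9 CPM in Control, and Tlr8 had 143, 132 and 117 CPM in Full Tumor and 110, 69.7 and 44.3 CPM in Control. In both genes the groups did not overlap, and the log2 fold changes were 0.76 ± 0.14 and 0.89 ± 0.17 with adjusted p of 0.0258 and 0.0378. Each of them passed in 1 of 6 fits without 1 library and not without number 016, at adjusted p of 0.161 (Tlr7) and 0.101 (Tlr8).

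Some complement genes of the classical and alternative pathways rose, and a receptor subunit fell. Of 17 tested members 4 were higher and 1 lower, with a median of 0.42. Cfp, properdin, which stabilises the alternative pathway convertase, was at 218, 342 and 281 CPM in Full Tumor and 48.2, 60.5 and 200 CPM in Control. The groups did not overlap, and the Control library of 016 lay near the Full Tumor range. Its log2 fold change was 1.74 ± 0.30 with an adjusted p of 0.0233, and 2.34 without number 016. C1qb, a chain of the classical recognition molecule C1q, was at 2278, 3502 and 1561 CPM in Full Tumor and 1345, 2267 and 604 CPM in Control, and C1qc at 1746, 2553 and 1259 CPM in Full Tumor and 1016, 1668 and 513 CPM in Control. The groups of both chains overlapped, because the level varied among numbers more than between the libraries of 1 number, and the log2 fold changes were 0.90 ± 0.14 and 0.88 ± 0.15 with adjusted p of 0.0163 and 0.0176. Itgax, the CD11c subunit of complement receptor 4, was lower, at 88.5, 80.7 and 130 CPM in Full Tumor and 161, 152 and 214 CPM in Control, with a log2 fold change of −0.83 ± 0.15 and an adjusted p of 0.0248. Itgam, the CD11b subunit of complement receptor 3, did not pass, at 121, 149 and 178 CPM in Full Tumor and 124, 183 and 157 CPM in Control. The number of members called was 0, 1 and 1 without the Full Tumor library of 957, 958 or 016 and 2, 2 and 5 without the Control library of 957, 958 or 016.

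Single genes of macrophage identity and of extracellular signals were also among the higher ones. Of 12 tested macrophage identity genes 2 were called higher and none lower, with a median of 0.10. Called higher were 2 of 16 tested chemokines (median 0.22) and 1 of 18 chemoattractant receptors (0.34). Of 15 tested G protein-coupled receptor and ion transport genes 2 were called higher (median 0.13), and none was called lower in these 3 lists. Aif1, the cytoskeletal protein IBA1 used to stain macrophages and microglia, was at 74.3, 167 and 51.3 CPM in Full Tumor and 31.3, 70.5 and 14.5 CPM in Control. The groups overlapped across numbers but not within one, and the log2 fold change was 1.42 ± 0.18 with an adjusted p of 0.00474. Pf4, a platelet and macrophage chemokine, was at 71.2, 139 and 128 CPM in Full Tumor and 21.6, 57.2 and 53.9 CPM in Control, without overlap, at a log2 fold change of 1.42 ± 0.18 and an adjusted p of 0.00474. Gpr65, a proton-sensing receptor, and S1pr1, the receptor for sphingosine 1-phosphate, had log2 fold changes of 0.89 ± 0.17 and 0.69 ± 0.14 with adjusted p of 0.0409 and 0.0482. Gpr35, a receptor bound by kynurenic acid, had 34, 24 and 30 counts in the Full Tumor libraries and 1, 0 and 0 counts in the Control libraries. Scaled for depth the ratio of the sums, 88 counts over 1, was 87.6, with an exact 95% interval of 15.3 to 3499.9 that covers counting error only. Aif1 and Pf4 passed in all 6 fits without 1 library, Gpr65 and Gpr35 in 1, and S1pr1 in none. Without number 016 Gpr65, Gpr35 and S1pr1 did not pass, at adjusted p of 0.206, 0.121 and 0.220.

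A pair of genes outside all lists, chosen after their values were seen, were also higher. Selenop, the secreted selenium carrier, was at 748, 1055 and 636 CPM in Full Tumor and 442, 490 and 254 CPM in Control, with a log2 fold change of 1.07 ± 0.14. Sat1, which acetylates spermidine and spermine in polyamine breakdown, was at 892, 976 and 918 CPM in Full Tumor and 554, 562 and 522 CPM in Control, with a log2 fold change of 0.77 ± 0.08. In both genes every Full Tumor library lay above every Control library, the adjusted p values were 0.00474 and 0.00311, and both passed in all 6 fits without 1 library.

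Lysosomal enzymes rose in part. Of 15 tested cathepsins, related proteases and inhibitors 4 were higher and none lower, with a median of 0.27. Ctsc, the dipeptidyl peptidase that activates granule serine proteases (chromosome 7, 88278085 to 88310888), was at 282, 326 and 496 CPM in Full Tumor and 141, 118 and 217 CPM in Control. The groups did not overlap, the log2 fold change was 1.23 ± 0.15 with an adjusted p of 0.00455, and it passed in all 6 fits without 1 library. Ctsh, Ctsl and Lgmn, the asparaginyl endopeptidase legumain, had smaller log2 fold changes of 0.50 ± 0.08, 0.47 ± 0.09 and 0.49 ± 0.10, with adjusted p of 0.0136, 0.0374 and 0.0434. They passed in 2, 2 and 1 of the 6 fits without 1 library, and Lgmn was at an adjusted p of 0.0519 without number 016. Ctsb, Ctsd and Ctss, with log2 fold changes of 0.27, 0.28 and 0.11, did not pass, and nor did Ctsk, the osteoclast collagenase, at −0.45.

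Of 22 tested genes for lysosomal breakdown of lipids only Glb1 was called, although 19 had a positive log2 fold change and the median was 0.22. Glb1, acid beta-galactosidase, was at 235, 205 and 266 CPM in Full Tumor and 142, 117 and 184 CPM in Control. Its groups did not overlap, and the log2 fold change was 0.69 ± 0.12 with an adjusted p of 0.0224. Galc and Arsa, the enzymes for the myelin lipids galactosylceramide and sulfatide, had log2 fold changes of 0.31 ± 0.18 and 0.22 ± 0.18 and did not pass. Grn, progranulin, a secreted and lysosomal factor, was at 2851, 2797 and 2694 CPM in Full Tumor and 2025, 1769 and 1969 CPM in Control, with a log2 fold change of 0.54 ± 0.09 and an adjusted p of 0.0233. A further 3 acid hydrolases in no list, chosen after their values were seen, also passed, namely the acid phosphatases Acp2 (log2 fold change 0.59) and Acp5 (1.08) and the fucosidase Fuca2 (0.57). None of the 24 tested genes for lysosome membrane proteins and acidification passed, and their median was 0.02. Glb1, Grn and Acp2 each passed in 1 of the 6 fits without 1 library, Acp5 in 2 and Fuca2 in none.

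Of 19 tested heat shock and unfolded protein genes 2 were higher, Hspa5 and Hsp90b1, and none lower, with a median of 0.03. They are described with 5 other called genes for protein folding in the endoplasmic reticulum (ER), Calr and Pdia3 from the class I presentation list and 3 from no list, a grouping made after the values were seen. Calr, the lectin chaperone calreticulin, was at 553, 470 and 638 CPM in Full Tumor and 317, 298 and 400 CPM in Control, a log2 fold change of 0.71 ± 0.09 with an adjusted p of 0.00474. Hspa5, the ER member of the Hsp70 family known as BiP, was at 1233, 1186 and 1610 CPM in Full Tumor and 800, 620 and 1130 CPM in Control, a log2 fold change of 0.69 ± 0.14 with an adjusted p of 0.0422. In both genes the groups did not overlap. Hsp90b1, the ER member of the Hsp90 family, was at 448, 462 and 621 CPM in Full Tumor and 298, 282 and 383 CPM in Control, and Pdia3, a disulfide isomerase that also serves class I antigen loading, at 1135, 1133 and 1539 CPM in Full Tumor and 766, 672 and 1023 CPM in Control. Their log2 fold changes were 0.67 ± 0.12 and 0.64 ± 0.11 with adjusted p of 0.0278 and 0.0199. The 3 in no list were the disulfide isomerases Pdia6 and P4hb and the secreted ER factor Manf. Pdia6 was at 413, 378 and 526 CPM in Full Tumor and 201, 191 and 298 CPM in Control, with the largest log2 fold change of these 7 genes, 0.95 ± 0.12 and an adjusted p of 0.00474. P4hb and Manf had log2 fold changes of 0.47 ± 0.09 and 0.61 ± 0.12.

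Upstream sequences of 4 of these genes are shown because each holds the ER stress element, the letters CCAAT, then 9 bases of any kind, then CCACG, a motif bound by unfolded protein response factors such as ATF6. They are the 200 bases before the RefSeq gene start, or the 222 before it for Hsp90b1, on build GRCm38.p6, 5′ to 3′ on the gene's strand, with both ends of the motif in capitals (CGTGG and ATTGG where it lies on the opposite strand).
Hspa5 (chr2:34771890-34772089, plus strand): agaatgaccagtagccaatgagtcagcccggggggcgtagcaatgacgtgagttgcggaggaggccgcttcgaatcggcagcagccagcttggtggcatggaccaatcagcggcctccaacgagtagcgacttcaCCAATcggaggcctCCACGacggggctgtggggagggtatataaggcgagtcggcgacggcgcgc
Pdia6 (chr12:17266389-17266588, plus strand): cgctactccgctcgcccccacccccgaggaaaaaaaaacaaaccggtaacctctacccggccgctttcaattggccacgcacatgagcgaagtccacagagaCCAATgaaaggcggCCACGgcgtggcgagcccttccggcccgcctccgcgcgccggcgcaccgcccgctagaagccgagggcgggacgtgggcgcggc
Calr (chr8:84846932-84847131, minus strand): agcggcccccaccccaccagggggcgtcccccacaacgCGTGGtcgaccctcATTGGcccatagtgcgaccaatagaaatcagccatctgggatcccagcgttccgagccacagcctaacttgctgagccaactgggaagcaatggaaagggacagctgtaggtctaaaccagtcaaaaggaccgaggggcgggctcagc
Hsp90b1 (chr10:86705445-86705666, minus strand): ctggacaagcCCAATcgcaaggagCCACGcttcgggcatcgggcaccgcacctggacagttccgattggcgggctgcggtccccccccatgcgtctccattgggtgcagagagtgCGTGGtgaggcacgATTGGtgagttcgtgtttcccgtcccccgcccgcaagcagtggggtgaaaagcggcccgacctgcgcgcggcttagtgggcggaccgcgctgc
Counted to its first base as printed, the element began 65 bases before the start of Hspa5, 98 before that of Pdia6, 162 before that of Calr, and 107 and 212 before that of Hsp90b1.

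Searched on both strands from 250 bases before to 50 after the start, the element was in 37 of 27025 gene windows, or 0.137%, and in 4 of the 82 called genes that have a window, or 4.88%. Those 4 were the genes printed. Pdia3 and P4hb had a window with no match, and Manf was not matched to a window. The element was searched for with these genes already grouped, and the 27025 windows include genes that were not tested. The 2 shares are therefore no test of the called genes. A match is a description of letters and not of binding. The stress transcripts that often rise with the unfolded protein response did not pass, Xbp1, Herpud1, Ddit3, Asns and Trib3 having log2 fold changes of 0.10, −0.17, −0.60, −0.69 and −0.83. The cytosolic heat shock genes Hspa8, Hsp90aa1, Hsph1 and Dnajb1 lay between −0.08 and 0.16 and did not pass. Calr and Pdia6 passed in all 6 fits without 1 library, Pdia3 in 2, Hspa5 in 1, and Hsp90b1, P4hb and Manf in none. The number of the 19 list genes called was 0 without any 1 of the Full Tumor libraries and 2 without number 016. It was 1, 0 and 1 without the Control library of 957, 958 or 016. The 1 gene called without the Control library of 957 was neither Hspa5 nor Hsp90b1 (adjusted p 0.210 and 0.137 in edgeR's test).

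Some genes of sterol synthesis fell. Of 23 tested genes of sterol synthesis and its control 5 were called lower and none higher, with a median of −0.56. A negative log2 fold change was found in 21 of the 23, and in 6590 of all 13414 tested genes. Sqle, squalene epoxidase (chromosome 15, 59315077 to 59331192), was at 58.7, 43.0 and 67.0 CPM in Full Tumor and 142, 110 and 223 CPM in Control. Its groups were well separated, at a log2 fold change of −1.47 ± 0.14 and an adjusted p of 0.000644. Cyp51, which demethylates lanosterol (chromosome 5, 4081145 to 4104746), was at 44.7, 47.6 and 46.1 CPM in Full Tumor and 103, 78.5 and 113 CPM in Control, at a log2 fold change of −1.07 ± 0.14 and an adjusted p of 0.00474. The Full Tumor libraries lay close together and all below the Control libraries. Fdft1, squalene synthase, was at 26.5, 21.8 and 18.8 CPM in Full Tumor and 52.7, 51.9 and 56.7 CPM in Control, with a log2 fold change of −1.28 ± 0.22 and an adjusted p of 0.0224. Insig1, which retains the SREBP complex in the ER, was at 36.1, 58.7 and 20.7 CPM in Full Tumor and 60.9, 74.5 and 58.2 CPM in Control, with an adjusted p of 0.0573. Hmgcs1, which makes hydroxymethylglutaryl-CoA, had a log2 fold change of −0.72 and did not pass, and Ebp and Dhcr7 were at 0.03 and 0.02. The sterol regulatory letters TCACNCCAC were found in 1 of the 16 sterol genes with a promoter window, Hmgcs1 (6.25%), and in 1.44% of all windows. Sqle and Fdft1 had no window and were not searched. The letters were also in 2 of the 82 called genes with a window (2.44%), Ctsc and Hsp90b1, both higher in Full Tumor. Sqle and Cyp51 passed in all 6 fits without 1 library and Fdft1 in none.

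The LXR targets called were Abca1, Abcg1, Pltp and Apoe, 4 of 15 tested, with none lower and a list median of 0.66. Abca1, which loads cholesterol onto apolipoproteins, was at 184, 227 and 132 CPM in Full Tumor and 35.8, 39.8 and 3.73 CPM in Control. The Control library of 016 was far below the other 2, so the ratio within that number was the largest of the 3. The log2 fold change was 3.07 ± 0.43, and 2.44 without number 016. Abca1 was one of 16 called genes whose log2 ratio differed by more than 1 between numbers. Mylip, a ubiquitin ligase, had 99.2, 80.6 and 71.4 CPM in Full Tumor and 71.3, 72.9 and 26.6 CPM in Control and did not pass (adjusted p 0.231). Lpl and Srebf1 had log2 fold changes of −0.22 and −0.32 and did not pass.

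Other genes lower in Full Tumor encode a matrix protease and regulators. Mmp12, macrophage elastase (chromosome 9, 7344381 to 7369499), was at 2566, 1733 and 4665 CPM in Full Tumor and 4537, 3111 and 7079 CPM in Control. It was lower within each number, with overlap across numbers, at a log2 fold change of −0.75 ± 0.09 and an adjusted p of 0.00474. Mmp27, another matrix metalloproteinase, was higher, at 21.9, 20.9 and 30.2 CPM in Full Tumor and 7.56, 5.82 and 13 CPM in Control, with a log2 fold change of 1.51 ± 0.23 and an adjusted p of 0.0126. Mmp14 was higher too, and the list of 18 tested matrix proteases and inhibitors had a median of 0.20. Egr2, an early growth response transcription factor, was at 50.2, 38.1 and 92.5 CPM in Full Tumor and 139, 73.1 and 181 CPM in Control, a log2 fold change of −1.11 ± 0.15 with an adjusted p of 0.00663. Egr2 was the one called gene among 18 tested immediate early genes. Another 5 lower genes, in no list, chosen after their values were seen, had log2 fold changes between −0.78 and −0.49, namely the DNA methyltransferase Dnmt3a (−0.61), the heme synthesis enzyme Alas1 (−0.57), the small GTPase Rhoc (−0.67), the adaptor Stap1 (−0.78) and the scaffold protein Ahnak (−0.49). Mmp12 and Egr2 passed in all 6 fits without 1 library, Mmp27 in 3, Stap1 in 2, and the other 4 in 1 each.

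**Figure D3:**
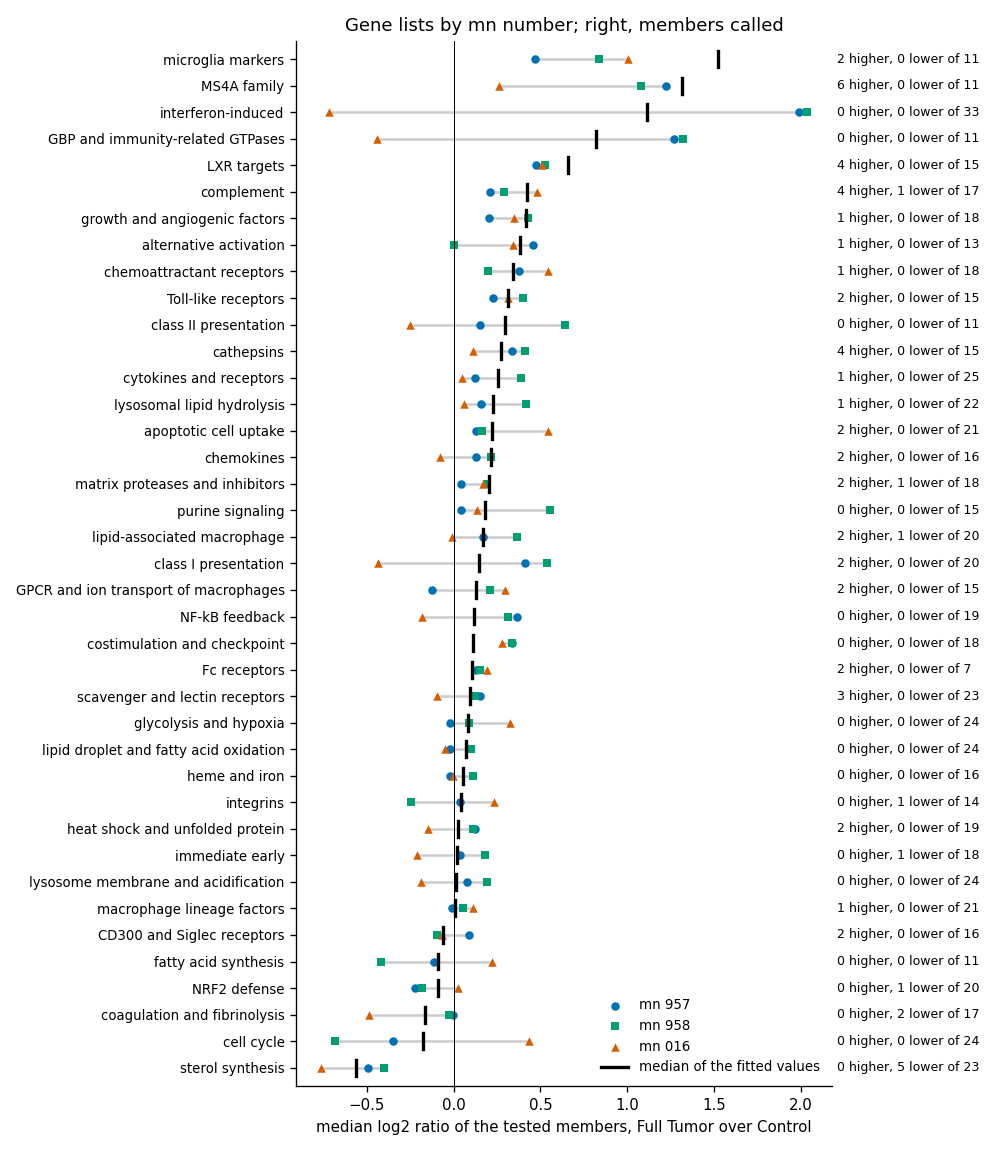
Median log2 ratio, Full Tumor over Control, of the tested members of each pathway list, as 1 point per mn number, with a black tick at the median of the fitted values and the count of members called at the right. The MS4A family and the LXR targets lie right of 0 and sterol synthesis left of 0 in all 3 numbers, while the interferon-induced list lies near 2 in numbers 957 and 958 and at −0.72 in 016.

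The same Control libraries serve as the baseline of the other 2 groups, so the 3 differences from Control are not independent and are given side by side. For the 85 higher genes the median log2 difference from Control was 0.87 (Full Tumor), 0.74 (Tumor without Myelin) and 0.37 (Myelin Alone). For the 24 lower genes it was −1.04, −0.53 and −0.54 in those groups. Ms4a4a was at 3.00 (Full Tumor), 2.73 (Tumor without Myelin) and −0.29 (Myelin Alone), and Ms4a6b at 2.29, 2.48 and 0.48. Ctsc was at 1.23, 1.46 and 0.10, and Hspa5 at 0.69, 0.74 and 0.17, in the same order of groups. The sterol genes ran the other way, with Sqle at −1.47, −0.51 and −1.23 and Cyp51 at −1.07, −0.24 and −1.06. Since the 109 genes were chosen on the Full Tumor libraries, the larger Full Tumor medians are a description.

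The direct tests between groups share the Full Tumor libraries. Against Tumor without Myelin, Full Tumor had 0 of 13414 genes called with edgeR (0%), 520 had an unadjusted p under 0.05, and DESeq2 called 15. Of the 109 genes 25 had an unadjusted p under 0.05 in that test. Sqle was at 58.7, 43.0 and 67.0 CPM in Full Tumor and 126, 81.4 and 119 CPM in Tumor without Myelin, without overlap, a log2 difference of −0.96 that did not pass after adjustment (0.132). For Fdft1 and Cyp51 the differences were −0.94 and −0.84, and neither passed. The chaperones differed by −0.04 (Hspa5) to 0.21 (Pdia6) between these groups and did not pass.

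Against Myelin Alone, Full Tumor had 15 genes called (0.112%), 995 had an unadjusted p under 0.05, and 10 of the 15 were among the 109. These were Ms4a4a, Ms4a6b, Ms4a6c, Siglec1, Fcgr1, Aif1, Tgm2, Ctsc and Nxpe5, all higher, and Serpinb9b, lower. Ms4a6b was at 133, 172 and 59.4 CPM in Full Tumor and 31.4, 41.3 and 24.5 CPM in Myelin Alone, a log2 difference of 1.81 with an adjusted p of 0.00316. Ms4a4a was at 17.5, 28.0 and 6.90 CPM in Full Tumor and 3.06, 1.93 and 0.610 CPM in Myelin Alone, with a log2 difference of 3.28 and an adjusted p of 0.0167. For Ctsc the difference was 1.14 and for Siglec1 1.82, with adjusted p of 0.0167 and 0.0247. The groups did not overlap for Ms4a6b and Ms4a4a. The 5 other genes called were Dck, Zfp36, Zfp36l1, Ly86 and Nr4a1, all higher in Full Tumor. The count was 0 without the Myelin Alone library of 957, 1 without that of 958, and 5 and 3 without the Full Tumor library of 957 or 958. It was 0 without number 957 or 958 and 120 without 016.

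**Figure D4:**
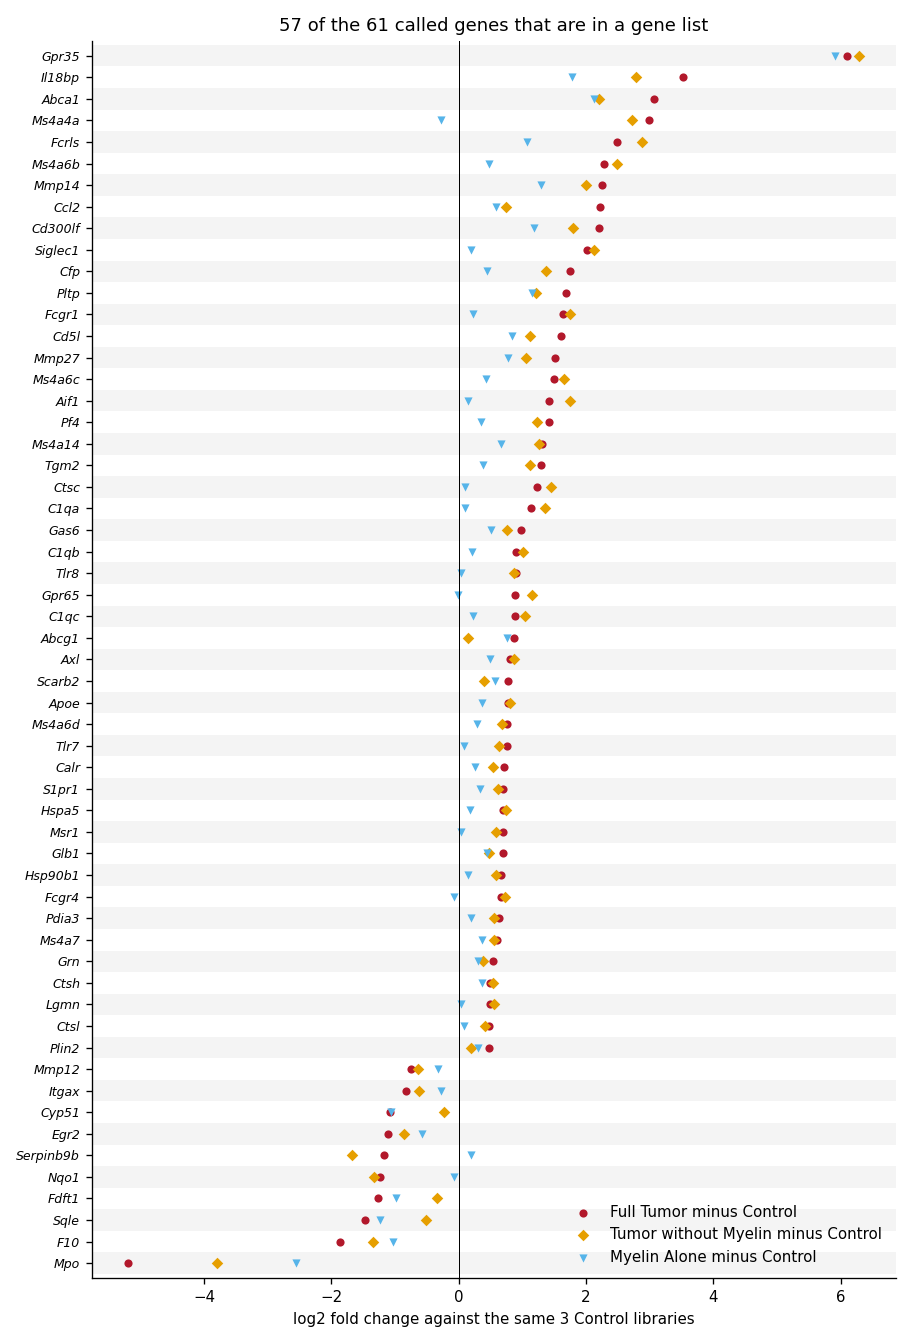
Log2 fold change of 57 of the 61 called genes that belong to a gene list, on the horizontal axis, for Full Tumor, Tumor without Myelin and Myelin Alone, each minus the same 3 Control libraries. For Ms4a4a, Ms4a6b and Ctsc the first 2 groups lie together to the right of Myelin Alone, while for Cyp51 Myelin Alone lies beside Full Tumor and Tumor without Myelin nearer to 0.

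Interferon-induced genes were higher in Full Tumor in numbers 957 and 958 and not in 016. The median log2 ratio of the 33 tested genes was 1.99, 2.04 and −0.72 in 957, 958 and 016, and 33, 33 and 6 of them were higher in those numbers. Their summed level was 4170, 4498 and 1272 CPM in Full Tumor and 1195, 1208 and 1775 CPM in Control. Over all 3 numbers none of the 33 passed with the edgeR test, and their median was 1.11. Irf7, the transcription factor that amplifies type I interferon, was at 377, 385 and 16.4 CPM in Full Tumor and 33.7, 29.4 and 36.4 CPM in Control. Ifit1, an antiviral RNA-binding protein, was at 73.1, 97.9 and 4.58 CPM in Full Tumor and 4.37, 3.02 and 31.6 CPM in Control. In number 016 both genes were lower in the Full Tumor library than in the Control library. There is 1 library per group and number, so a difference between numbers was not tested.

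Without number 016, that is with 2 pairs, 183 of 13510 genes were called (1.35%), 163 higher (1.21%) and 20 lower (0.148%). Of these 71 were among the 109 and 112 were not. Number 016 is the one in which most interferon-induced genes were lower in Full Tumor, so leaving it out describes 957 and 958 alone. Without number 957 or without 958, 0 members of that list passed. Without 016, 28 of the 33 interferon-induced genes were called higher, with log2 fold changes of 1.11 to 4.97. The list median was 2.17, beside 0.01 over all genes. Irf7 was at 3.60 ± 0.17 and Ifit1 at 4.53 ± 0.27. The 4 class II antigen presentation genes called without 016, H2-Ab1, Cd74, H2-Aa and H2-Eb1, were higher by 1.00, 0.99, 0.97 and 0.90. With all 3 numbers none of the 11 tested members of that list passed. H2-Ab1 was at 541, 754 and 139 CPM in Full Tumor and 295, 348 and 213 CPM in Control, the Full Tumor library of 016 being the lowest of the 6. The immunity-related GTPases Irgm1, Irgm2 and Igtp and the guanylate-binding protein Gbp3, induced mostly by interferon gamma, were higher by 1.67, 1.43, 1.06 and 2.10. They were the 4 members of their list called without 016, where Gbp2 was at −0.12 and did not pass. With all 3 numbers none of the 11 tested members of this list passed. The residual spread in the fit without 016 comes from 3 degrees of freedom.

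**Figure D5:**
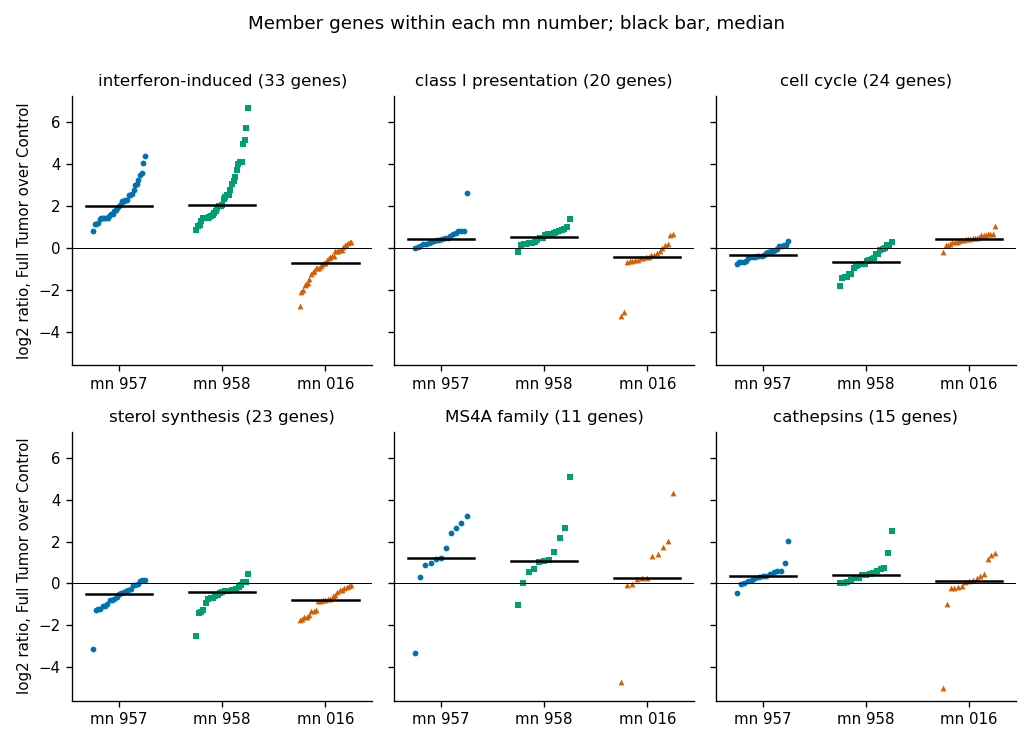
Log2 ratio, Full Tumor over Control, of each tested member of 6 gene lists within each mn number, with a black bar at the median. The interferon-induced medians are 1.99, 2.04 and −0.72 in 957, 958 and 016. Those of the MS4A family are 1.22, 1.08 and 0.26, and those of sterol synthesis lie below 0 in all 3 numbers.

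Mpo, myeloperoxidase of neutrophil and monocyte precursors, had the lowest log2 fold change of the called genes. It had 0, 0 and 3.88 CPM in Full Tumor and 0.107, 1.10 and 111 CPM in Control. Its adjusted p was 0.00455, 0.214 without the Full Tumor library of 016, 0.0340 without the Control library of 016 and 0.0954 without number 957, and it was not tested without number 016. Elane and Prtn3, other primary granule genes, were at 40.9 and 18.4 CPM in the Control library of 016 and did not pass. The 12 neutrophil markers summed to 78.4, 93.2 and 16.6 CPM in Full Tumor and 41.2, 94.8 and 288 CPM in Control, 1 of the 10 tested passed, and 7, 2 and 0 of the 10 were higher in Full Tumor in 957, 958 and 016. The part of granulocyte precursors in other differences within number 016 was not tested. None of 9 tested monocyte markers passed, with a median of 1.27, and medians of 1.03, 2.84 and −1.12 in 957, 958 and 016. Of the 11 tested microglia markers 2 were higher, among them Fcrls, which was at 53.0, 97.4 and 101 CPM in Full Tumor and 16.9, 19.9 and 7.65 CPM in Control.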

How the data were processed

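Per the labels' protocols, cDNA was primed with oligo-dT and extended by a template switch. The authors deposited raw counts per gene with gene positions, and the submitters' processing notes name mm10; the aligner, the counter and its strand setting are not stated there. Every count column was matched to a sample by its description, and 0 columns were left unmapped. Groups were taken from the labels.

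Counts were filtered by expression per group, scaled by TMM and fitted with edgeR 4.0.16 in R 4.3.3 (quasi-likelihood test, 12 libraries, 6 residual degrees of freedom), with group and mn number as terms. SE is the absolute log2 fold change over the root of F. Ratios within a number use a prior count of 2. Alternatives were no mn term, the 6 libraries alone, DESeq2 1.42.0, limma-voom 3.58.1, other scalings, no filter, and each library or number left out. The code was tested on simulated data.

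The mn numbers were taken to pair libraries because the deviations from group means correlated over 0.1 in 18 of 18 same-number pairs. These correlations were 0.120 to 0.631, and 0.138, 0.211 and 0.451 for Full Tumor with Control in numbers 957, 958 and 016. Number 016 lay apart from 957 and 958 in every group on the first principal component. That alone can make same-number deviations correlate, even if 957 and 958 were not matched across groups. Correlations between different numbers are not given, so the check cannot decide whether libraries of 957 or of 958 are pairs. Within Full Tumor and within Control no library was a duplicate of another, the chi-square per degree of freedom of pairs being 23.9 to 133. Pairs across groups and pairs within the other groups were not checked in this way.

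The gene lists and named genes were chosen with earlier results of these data known. Named were the called genes at 10 CPM or more and of 1 direction in the 3 pairs with the 15 highest and 12 lowest fold changes, called list members, key list genes, the 8 most abundant called genes and the 5 largest changes not called. Some genes are not reported here. Positions and symbols are those of the deposited table, and upstream sequences are from RefSeq. Intervals and floors cover counting error only, since PCR reads are not independent molecules.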

Additional observations from a re-analysis of the deposited data

How the results depend on the processing

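Full Tumor against Control gave 109 calls, 85 higher and 24 lower. Without the replicate block there were 0, 0 and 0 calls. Using only the 6 libraries of both groups gave 19, 12 and 7, leaving out the low-count filter gave 178, 130 and 48, and DESeq2 gave 343, 225 and 118. limma-voom gave 162, of which 46 were lower. Leaving out 1 library or 1 number gave 1 to 183 calls, 1 to 163 of them higher and 0 to 20 lower. Full Tumor against Tumor without Myelin had 0 calls, 5 without the filter, 15 with DESeq2 and 0 to 1 over the leave-outs. Full Tumor against Myelin Alone had 15, and 0 without the replicate block, 89 without the filter, 163 with DESeq2, 34 with limma-voom and 0 to 120 over the leave-outs. Of 64 called genes that the naming rule takes, 64 lost the call without the block, 50 with the 6 libraries alone and 8 under library totals, and none changed direction in any alternative. The log2 fold change of 10 named genes that were not called changed sign. Over the leave-outs it ranged from −1.01 to 4.37 for Arg1, −0.57 to 1.39 for Hspa1a, −0.0023 to 0.26 for Lamp1, −0.035 to 0.21 for Nfkbia, −0.046 to 0.11 for P2rx7, −0.14 to 0.34 for H2-K1, −0.13 to 0.14 for Fos, −0.22 to 0.073 for Itgam, −0.19 to 0.072 for Slc2a1 and −0.80 to 0.11 for Mki67. Under library totals P2rx7 was at −0.0014 and H2-K1 at −0.022, and without the replicate block Fos was at 0.036. The smallest called log2 fold changes were 0.46 and −0.49.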

Other observations

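Saa3, Ccl5 and C3, chosen after their values were seen, had unlike ratios in the 3 numbers, a difference that was not tested. Saa3, an acute-phase protein of macrophages, was at 55.3, 106 and 2.13 CPM in the Full Tumor libraries of 957, 958 and 016 and at 2.82, 3.35 and 4.81 CPM in the Control libraries. Ccl5, a T cell chemokine, was at 29.1, 60.2 and 2.84 CPM in Full Tumor and 3.30, 4.72 and 6.52 CPM in Control. C3, the central complement component, was at 30.9, 39.3 and 3.50 CPM in Full Tumor and 8.52, 8.07 and 16.5 CPM in Control. In each of these genes the Full Tumor library was the higher of the pair in 957 and 958 and the lower in 016. None passed over the 3 numbers, and without 016 the log2 fold changes were 4.64 ± 0.31, 3.42 ± 0.27 and 2.05 ± 0.29, with adjusted p of 9.9e-05, 0.00024 and 0.0071 in edgeR's test. Leaving out the number of opposite direction favors such a result, so these values describe 957 and 958 alone.

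Cell cycle genes had median log2 ratios of −0.35, −0.68 and 0.43 in 957, 958 and 016 over 24 tested genes, none of which passed. The largest changes that kept 1 direction in the 3 pairs and did not pass were those of Ccl7 (log2 fold change 2.76), Ifi44 (2.43), Cst7 (2.09), Gm21188 (1.95) and Ighm (−2.65). Mertk, a receptor for engulfment of dying cells, missed the threshold at an adjusted p of 0.0509, with 49.1, 64.2 and 46.2 CPM in Full Tumor and 23.7, 31.5 and 7.95 CPM in Control.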
